A study of Mus musculus with 6 samples.

Results

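Collagen chains were taken as every symbol of the deposited count table made of "Col", a number, "a" and a number, with nothing before or after. The rule found 44 genes among 55809 symbols, and it used no measured value. The table holds 6 messenger RNA libraries of 410.4 cells, a mouse mammary carcinoma line labelled as breast cancer cells, all kept for 2 days in medium with 0.5% serum. In 3 libraries, named NET here, that medium had been used to collect neutrophil extracellular traps (NETs), meshes of chromatin and granule contents thrown out by activated neutrophils. In the other 3, named Veh as in the sample titles, it was DMEM with the same serum share. No label mentions a genetic change or a second line, and the control medium is not described as having held neutrophils, so NETs and anything else that neutrophils left in the medium cannot be told apart. Separate cultures are not mentioned for the replicates, so every p-value refers to the spread of the 6 libraries, and that spread may be technical.

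Collagens are secreted or membrane-bound proteins whose chains wind around each other in a triple helix. Type IV collagens build the sheet of the basement membrane under an epithelium, and type VII builds anchoring fibrils that tie this sheet to the tissue beneath. Fibrillar collagens such as type I form the cables of connective tissue, where fibroblasts are the main source. Fibril-associated collagens, known as FACITs, sit on those cables, and type XVIII (a multiplexin) is a proteoglycan of basement membranes. TGF-beta, whose activation the title of the series names, is a classical inducer of collagen genes in fibroblasts.

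In both media most of the collagen signal came from Col4a1, Col8a1, Col4a2 and Col18a1, and with NETs the make-up differed while the sum stayed close. Col7a1, the anchoring fibril chain, was 2.36-fold higher with NETs. The highest folds were those of Col27a1 (14.9-fold, from 8, 4 and 1 counts in Veh libraries), Col1a1 (11.3-fold) and Col12a1 (5.88-fold), all low in control medium. Of the other low chains Col8a2 rose, Col11a2 fell and Col4a6, Col9a3, Col15a1, Col17a1 and Col20a1 were not called. The abundant basement membrane genes Col4a5, Col18a1 and Col4a2 fell by 26.0%, 15.3% and 10.4%, while Col4a1 and Col8a1, the most abundant chains, did not pass the test. Of 17 chains tested 6 were higher and 4 lower when p-values of edgeR's quasi-likelihood test were adjusted by Benjamini-Hochberg over all genes and called at 0.05. Of all 13956 genes tested 38.9% were called, 20.2% higher and 18.7% lower, so the share of chains called is to be read against a broad response. The median log2 fold change was -0.03 over the tested chains and -0.0039 over all tested genes. Scaling by library size alone left 35.9% of the called genes higher, against 52.0% with the TMM factors used here, and gave 6 chains higher and 5 lower.

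Sequences just upstream of RefSeq gene starts are shown for chains that moved apart, since the members that rose and those that did not can then be set side by side. RefSeq's table for build GRCm38.p6 matched 35 of the 44 chains. It held no window for the tested chains Col1a1 and Col12a1, which rose, or for Col9a3, which was not called. Windows of 250 bases before the RefSeq start are printed for 4 tested chains, chosen among those whose window holds no annotated exon: Col7a1 and Col27a1, which rose, Col8a1, which was not called, and Col11a2, which fell. The call of Col11a2 was weak, since its groups overlapped and the call was lost in 5 of 16 alternative settings. The GENCODE M21 annotation starts Col27a1 at 63214004, ahead of its window, and Col11a2 at 34039437, some way past the end of its window. For both, the window adjoins the RefSeq start only. Capitals mark CAGAC on either strand (read as GTCTG on the other), the core of the SMAD-binding CAGA box through which TGF-beta signals act.
Col7a1 (chr9:108953336-108953585, plus strand): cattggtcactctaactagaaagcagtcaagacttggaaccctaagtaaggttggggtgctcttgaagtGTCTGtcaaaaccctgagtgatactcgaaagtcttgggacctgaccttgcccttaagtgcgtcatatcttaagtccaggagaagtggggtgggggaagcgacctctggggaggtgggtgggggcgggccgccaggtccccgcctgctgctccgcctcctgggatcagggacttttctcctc
Col27a1 (chr4:63215162-63215411, plus strand): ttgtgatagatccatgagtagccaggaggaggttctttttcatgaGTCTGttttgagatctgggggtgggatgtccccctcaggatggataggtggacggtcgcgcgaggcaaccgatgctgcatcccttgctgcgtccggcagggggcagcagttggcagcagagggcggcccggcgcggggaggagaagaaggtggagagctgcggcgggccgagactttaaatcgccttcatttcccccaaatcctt
Col8a1 (chr16:57754738-57754987, minus strand): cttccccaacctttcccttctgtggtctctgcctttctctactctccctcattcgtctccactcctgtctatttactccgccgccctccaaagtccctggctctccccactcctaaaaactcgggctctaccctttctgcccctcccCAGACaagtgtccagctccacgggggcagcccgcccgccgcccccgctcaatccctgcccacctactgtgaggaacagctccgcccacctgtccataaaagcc
Col11a2 (chr17:34038888-34039137, plus strand): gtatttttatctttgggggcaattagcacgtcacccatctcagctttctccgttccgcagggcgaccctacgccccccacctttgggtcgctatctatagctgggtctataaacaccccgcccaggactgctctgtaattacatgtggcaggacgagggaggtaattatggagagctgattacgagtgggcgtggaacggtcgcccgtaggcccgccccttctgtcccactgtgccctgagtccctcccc
The CAGAC letters occurred 1 time each in the windows of Col7a1, Col27a1 and Col8a1 and 0 times in that of Col11a2, where 42.1% of 27018 promoter windows of the same length hold them on either strand. The AP-1 motif TGANTCA, held by 6.87% of those windows, was found in none of the 4. The other exon-free windows of tested chains, those of Col4a6 and Col15a1, neither of them called, held CAGAC 0 times. Among windows that hold an exon, those of Col8a2 and Col16a1, which rose, and of Col4a5, which fell, held it 0 times. That of Col4a2 and 1 of the windows of Col18a1, which also fell, held it 1 time. For chains not called, the window of Col20a1 held it 1 time and those of Col4a1 and Col17a1 held it 0 times. These matches describe letters only, and their part in the changes was not tested.

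A chain was called detected where all 3 libraries of a group held at least 6 counts, that is 3 fragments, since both mates of a read pair appear to have been counted. By that rule 19 of 44 chains were detected. All 17 tested chains were among them, together with Col5a1 and Col5a3, which the low-count filter removed. Another 16 chains had a count in some library but fell short, none above 19 counts in any library. The remaining 9 were listed at 0 in all 6 libraries: Col5a2 and Col11a1 of the fibrillar class, Col9a1, Col9a2, Col19a1 and Col22a1 among the FACITs, Col6a2, Col10a1 and Col13a1. A count of 0 allows up to 0.0902 to 0.199 CPM (counts scaled to library size with TMM factors) in a library at this floor, which covers counting error only.

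**Figure D1:**
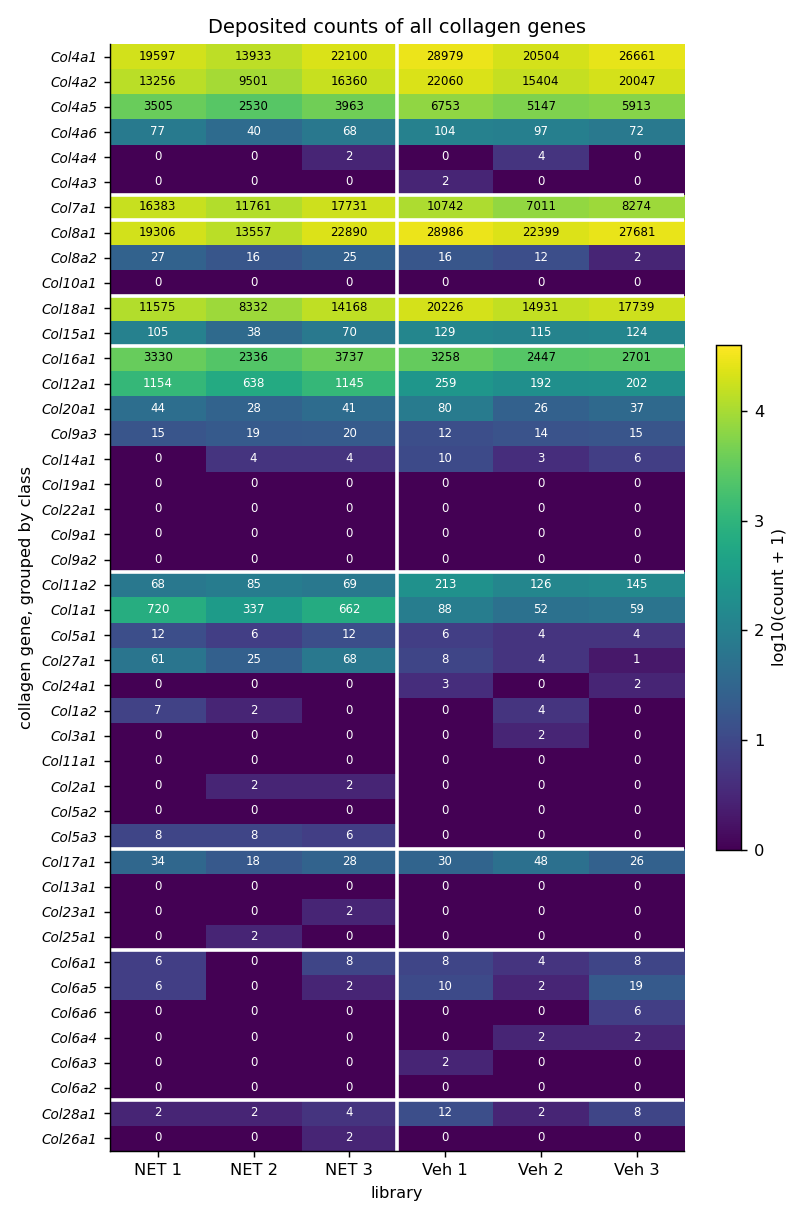
Deposited counts of all 44 collagen genes (rows, grouped by class) in the 3 NET and 3 Veh libraries (columns), coloured by log10(count + 1) with the count printed in each cell. Few rows carry most of the counts, and the type VI rows hold no count above 19.

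By class, detection was uneven. Of 6 type IV genes 4 were detected, and the other two, Col4a3 and Col4a4, whose products form the network of the kidney filter and other specialised membranes, had at most 4 counts in a library. Both multiplexin genes were detected. Of 11 fibrillar genes 5 were detected. Of 6 type VI genes, which encode beaded filaments of connective tissue, none was: Col6a5 reached 19 counts in 1 Veh library and Col6a1 at most 8. Col3a1, a fibrillar collagen of fibroblasts, had 2 counts in 1 Veh library and 0 in the others.

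Levels of different chains were compared as RPKM, the same scaled counts divided by the exon length in kilobases. In NET libraries Col4a1 led with 59.3 ± 2.39 RPKM, followed by Col8a1 with 56.4 ± 1.27, Col4a2 with 46.8 ± 1.80, Col18a1 with 38.4 ± 1.44 and Col7a1 with 35.6 ± 2.28 RPKM (SD, n = 3). In Veh libraries Col4a1 stood at 61.3 ± 3.28, Col8a1 at 61.0 ± 4.68, Col4a2 at 52.2 ± 2.52, Col18a1 at 45.4 ± 1.91, Col4a5 at 16.0 ± 0.918 and Col7a1 at 15.1 ± 0.549 RPKM. The order of Col4a1 and Col8a1 is within their spread in each group, and so is that of Col4a5 and Col7a1 in Veh libraries. With NETs Col7a1 stood clear above Col4a5, which had 11.9 ± 0.569 RPKM. All chains beyond these and Col16a1 were below 3 RPKM in every library.

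**Figure D2:**
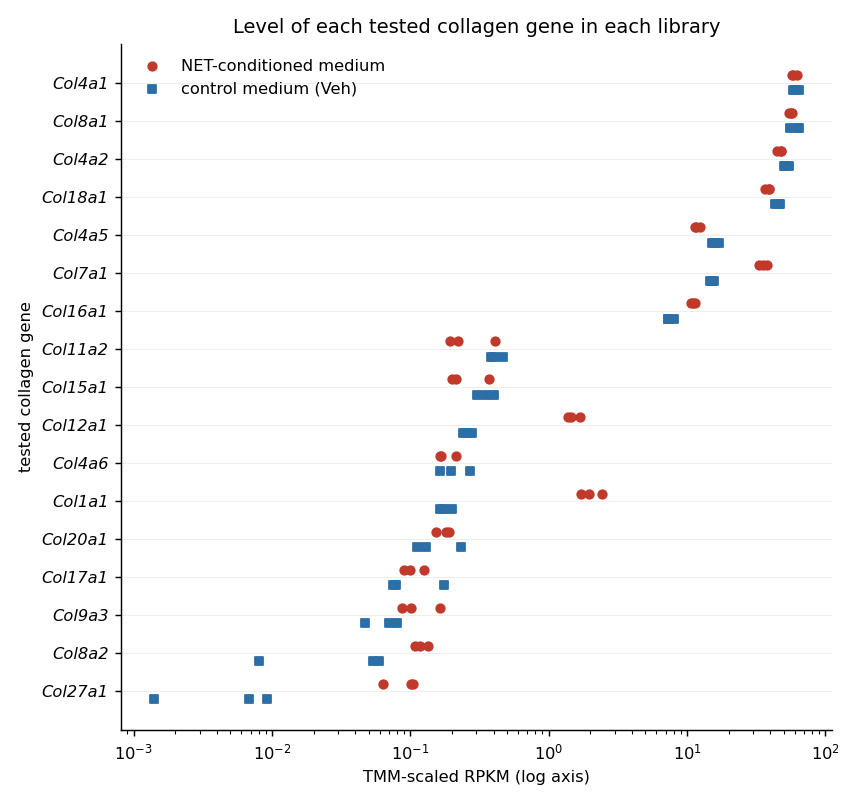
TMM-scaled RPKM (log axis) of the 17 tested collagen genes, with 1 point per library, NET libraries as circles and Veh libraries as squares. Points of the 2 groups are apart for Col7a1, Col12a1, Col1a1 and Col27a1 and mixed for Col4a1 and Col8a1.

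The summed length-scaled signal of all 44 chains was 264 ± 7.61 RPKM with NETs and 260.5 ± 11.6 RPKM in control medium (SD, n = 3). As a share of all deposited counts, with no scaling, collagen genes held 0.198% ± 0.00434 in NET libraries and 0.197% ± 0.00693 in Veh libraries. Within that sum Col7a1 made up 13.7%, 13.9% and 12.8% in the NET libraries, against 6.34%, 5.70% and 5.42% in the Veh libraries. Col18a1 made up 14.5% ± 0.392 with NETs and 17.4% ± 0.381 in control medium, and Col4a5 made up 4.48% ± 0.102 with NETs and 6.15% ± 0.239 in control medium. The shares of the NET and Veh libraries did not overlap for any of these 3 chains. Since the shares add up to the whole, a rise of Col7a1 lowers the others' shares, and each chain's own level is given next.

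**Figure D3:**
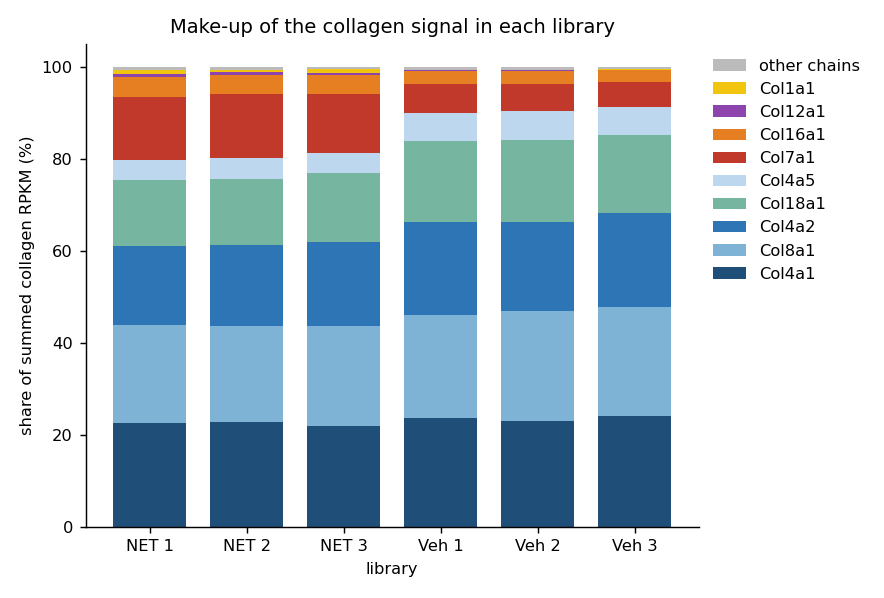
Share of the summed collagen RPKM (%) taken by each chain in the 3 NET and 3 Veh libraries, stacked to the whole. The band of Col7a1 is wider in every NET library (12.8% to 13.9%) than in any Veh library (5.42% to 6.34%).

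Type IV genes of the basement membrane sheet held or fell. Col4a1 had 437, 463 and 428 CPM in NET libraries, against 436, 454 and 484 CPM in Veh libraries, and the groups overlapped. Its log2 fold change was -0.05 ± 0.05 (SE; 95% interval -0.16 to 0.06, adjusted p = 0.507). Col4a2, whose product assembles with that of Col4a1, had 296, 316 and 317 CPM with NETs, against 332, 341 and 364 CPM in control medium. Every NET library lay below every Veh library, at a log2 fold change of -0.16 ± 0.05 (adjusted p = 0.0207). That call was lost without NET replicate 1 (adjusted p = 0.0890) or Veh replicate 3 (0.0812). Col4a5, a chain of the epithelial basement membrane whose human counterpart is mutated in Alport syndrome, had 78.2, 84.0 and 76.8 CPM with NETs, against 102, 114 and 107 CPM in control medium. It fell by 0.43 on the log2 scale (SE 0.06, adjusted p = 9.26e-06), with no overlap. Col4a6, its partner chain, had 1.72, 1.33 and 1.32 CPM with NETs, against 1.56, 2.15 and 1.31 CPM in control medium, and these overlapped (log2 fold change -0.19, adjusted p = 0.580).

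Type IV genes stand in pairs that are read in opposite directions from neighbouring starts. In GENCODE M21 (GRCm38) Col4a1 (minus strand) and Col4a2 (plus strand) start at positions 11312826 and 11312805 of chromosome 8, and the first exons overlap by 22 bases. On chromosome X, Col4a5 and Col4a6 start 1309 bases apart at 141475385 (plus strand) and 141474076 (minus strand). The first pair stood at like levels: the ratio of Col4a1 to Col4a2 in RPKM was 1.31, 1.30 and 1.20 in NET libraries, against 1.16, 1.18 and 1.18 in Veh libraries. Every NET ratio was above every Veh ratio, but 3 libraries against 3 allow no exact two-sided permutation p under 0.1, which was the value found (adjusted p = 0.15 over 3 pairs). The second pair did not: the ratio of Col4a5 to Col4a6 ran from 54.0 to 75.1 in NET libraries and from 63.0 to 97.5 in Veh libraries (exact permutation p = 0.4, adjusted p = 0.4).

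Among the multiplexins, Col18a1, whose product releases the endostatin fragment, had 258, 277 and 275 CPM with NETs, against 304, 330.2 and 322 CPM in control medium. Every NET library was below every Veh library (log2 fold change -0.24 ± 0.05, adjusted p = 0.00101). Col15a1 had 2.34, 1.26 and 1.36 CPM with NETs, against 1.94, 2.54 and 2.25 CPM in control medium. NET replicate 1 stood apart from the other NET libraries there, and the gene was not called (adjusted p = 0.174) unless that library was left out (log2 fold change -0.76, adjusted p = 0.0159).

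The type VIII genes encode short chains that form hexagonal sheets. Col8a1 had 431, 450.2 and 444 CPM with NETs, against 436, 495 and 503 CPM in control medium, and the groups overlapped. Its log2 fold change was -0.11 ± 0.06 (95% interval -0.23 to 0.00, adjusted p = 0.119). It was called lower with library size alone (-0.18, adjusted p = 0.00985) and without Veh replicate 1 (-0.18, adjusted p = 0.0213). Col8a2 had 27, 16 and 25 counts with NETs, against 16, 12 and 2 counts in control medium, or 0.602, 0.531 and 0.485 CPM against 0.241, 0.265 and 0.0363 CPM. It was called higher (2.97-fold, adjusted p = 0.0212), a call lost without NET replicate 1, NET replicate 3 or Veh replicate 3 (adjusted p = 0.0628, 0.0537 and 0.0830). Col8a1 exceeded Col8a2 410- to 525-fold in NET libraries and 1038- to 7932-fold in Veh libraries (exact permutation p = 0.1, adjusted p = 0.15). The difference of the log2 ratios, -2.13, was -1.16 without Veh replicate 3, the library with 2 counts of Col8a2.

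Col7a1, the only gene of the anchoring fibrils, carried the largest rise among abundant chains. It had 366, 391 and 344 CPM with NETs, against 161, 155 and 150.2 CPM in control medium. The lowest NET library was above the highest Veh library by far more than the spread within either group. The log2 fold change was 1.24 ± 0.05 (95% interval 1.12 to 1.35, adjusted p = 1.44e-11), and over the 16 alternatives it lay between 1.17 and 1.28. Ranked by p-value it stood 81st of the 13956 genes tested. Col7a1 spans positions 108953586 to 108984875 of chromosome 9 on the plus strand (GRCm38), with 116 merged exons, the most of all the chains.

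**Figure D4:**
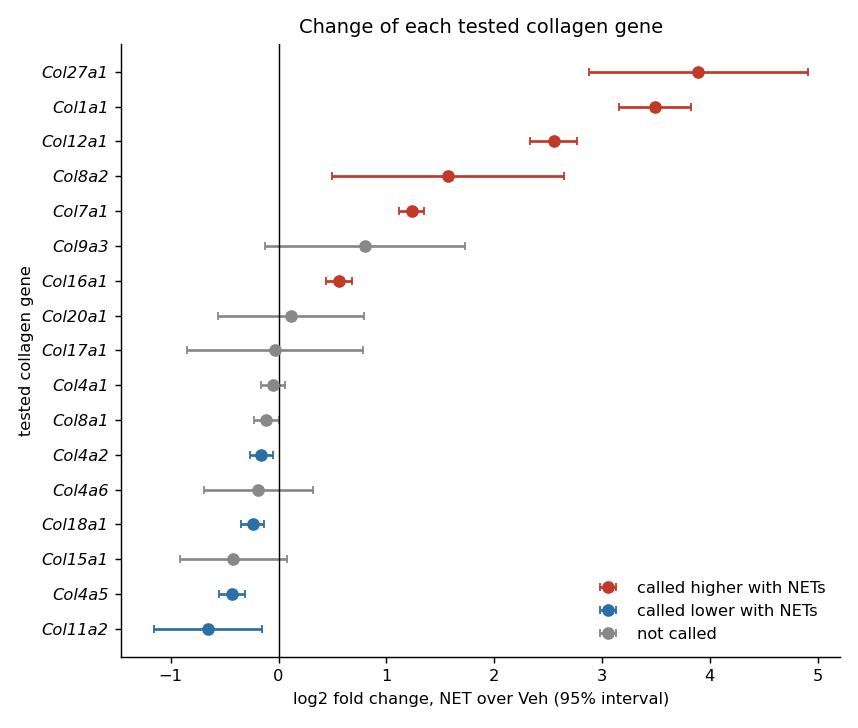
Log2 fold change (NET over Veh) of the 17 tested collagen genes with 95% intervals from the edgeR fit, coloured by call. 6 genes lie above 0 and 4 below it with a call, and the intervals are widest for genes with few counts, such as Col27a1 and Col8a2.

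The fibril-associated chains that were called both rose. Col12a1, which encodes a FACIT of tendon, skin and tumour stroma, had 25.7, 21.2 and 22.2 CPM with NETs, against 3.89, 4.25 and 3.67 CPM in control medium. The log2 fold change was 2.56 ± 0.10 (adjusted p = 4.80e-12). Col16a1, a FACIT found near basement membranes and thin fibrils, had 74.3, 77.6 and 72.4 CPM with NETs, against 49.0, 54.1 and 49.0 CPM in control medium (log2 fold change 0.56 ± 0.06, adjusted p = 5.93e-07). Neither gene's groups overlapped. Col9a3 had 15, 19 and 20 counts with NETs, against 12, 14 and 15 in control medium. Its CPM values did not overlap either, but it was not called (log2 fold change 0.81 ± 0.44, adjusted p = 0.163). Col20a1 had between 0.795 and 0.982 CPM with NETs and between 0.575 and 1.20 CPM in control medium (adjusted p = 0.816). Exons of 7 detected chains overlap those of another gene in GENCODE M21, by 14 to 234 bases, and how such reads were counted is not given, so that part of their counts is uncertain. The overlaps come to 234 bases for Col9a3, 212 for Col5a1, 79 for Col20a1, 65 for Col4a2, 36 for Col7a1, 22 for Col4a1 and 14 for Col15a1.

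Of the fibrillar genes 3 of 11 could be tested, and these moved both ways. Col1a1, the main chain of type I collagen, had 720, 337 and 662 counts with NETs, against 88, 52 and 59 in control medium. These are 16.1, 11.2 and 12.8 CPM, against 1.32, 1.15 and 1.07 CPM, with a log2 fold change of 3.49 ± 0.16 (adjusted p = 2.34e-11). Its partner chain gene Col1a2 had 7, 2 and 0 counts with NETs, against 0, 4 and 0 counts in control medium, too few for a test. Type I collagen is usually a heterotrimer of the products of both genes, and here only the transcript of Col1a1 was detected. Of 10 fibroblast markers 8 stayed under 6 counts in every library, and the other two were Pdgfra, which was not called, and Acta2, with 14, 0 and 14 counts with NETs, against 2, 4 and 0 in control medium. Their part in the rise of Col1a1 was not tested. Per kilobase Col1a1 reached 2.45, 1.71 and 1.96 RPKM with NETs, which remained below Col4a5 and Col16a1 in the same libraries.

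Col27a1, a fibrillar collagen of cartilage, had 61, 25 and 68 counts with NETs, against 8, 4 and 1 counts in control medium. The log2 fold change of 3.89 ± 0.48 (adjusted p = 5.61e-06) is large but ends at 1.17 ± 0.295 CPM with NETs (SD, n = 3), against 0.0756 ± 0.0522 CPM in control medium. Col11a2, which encodes a chain of cartilage fibrils, had 1.52, 2.82 and 1.34 CPM with NETs, against 3.20, 2.79 and 2.63 CPM in control medium. NET replicate 2 lay within the Veh range, so the groups overlapped although the gene was called lower (log2 fold change -0.65 ± 0.24, adjusted p = 0.0376). The call was lost without NET replicate 1, NET replicate 3, Veh replicate 1 or Veh replicate 2 (adjusted p = 0.108, 0.195, 0.143 and 0.0725) and with libraries thinned to equal depth (0.124).

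The type V genes stood at the edge of detection. Col5a3 had 8, 8 and 6 counts with NETs and was listed at 0 in all 3 Veh libraries, which makes its mean at least 1.69-fold higher against a floor of 6 counts in each Veh library. The NET libraries held 0.178, 0.266 and 0.116 CPM, and the lowest of these is below the floor of Veh replicate 2 (0.133 CPM). With no low-count filter its adjusted p in edgeR was 0.00142. P-values of that fit are not on the scale of the main fit: that of Col12a1 was 8.61e-132 there, against 4.80e-12. Col5a1 had 12, 6 and 12 counts with NETs, against 6, 4 and 4 in control medium, and was not called in the unfiltered fit (adjusted p = 0.212). Col5a2, which shares molecules with Col5a1, was at 0 throughout. Of the transmembrane chains Col17a1, a hemidesmosome component of basal epithelial cells, was the only one tested. It had 0.759, 0.598 and 0.543 CPM with NETs, against 0.451, 1.06 and 0.472 CPM in control medium (log2 fold change -0.03, 95% interval -0.85 to 0.79, adjusted p = 0.962). That interval spans changes in both directions, so at this depth no difference was detectable.

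Counted without a model, NET and Veh libraries were fully apart in CPM at 10 of the 17 tested chains, 7 with NET above and 3 with NET below. Over all tested genes 49% were apart in this way, 24.4% with NET above and 24.5% with NET below. Called changes of at least 2-fold were found at 5 chains, all rises (Col1a1, Col7a1, Col8a2, Col12a1 and Col27a1), which is 29.4% of the tested chains, while 5.95% of all tested genes were called at that size. Only 17 chains passed the filter, and a chain that is high in 1 group alone could pass through that group, so these shares do not describe all 44. Of the 5 rises, Col27a1 reached 10 counts in NET libraries only (61, 25 and 68, against 8, 4 and 1 in Veh libraries). Col8a2 reached 10 counts in every NET library but not in Veh replicate 3, which held 2. Both could thus pass through the NET group.

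Markers were read to check which cells the collagen reads could come from. All 8 mammary epithelial markers were tested, with a summed level of 4359 to 4579 CPM in NET libraries and 4099.6 to 4382 CPM in Veh libraries. The sum covers members that moved apart, since Cldn4 and Krt8 were called higher, Krt18, Cdh1 and Cldn7 lower and the other three not. Of the fibroblast markers 6 (Dcn, Lum, Thy1, Dpt, Twist2 and Tcf21) were at 0 in every library. Their sum of 48.1 to 52.1 CPM with NETs and 41.6 to 47.4 CPM in control medium was almost all Pdgfra (adjusted p = 0.164). Neutrophil markers summed to 2.98 to 3.37 CPM with NETs and 1.62 to 2.08 CPM in control medium, mostly S100a8, which was called higher (1.91-fold). Elane, Camp, Ngp, Retnlg and Csf3r were at 0 in all libraries. Cxcr2 had 24, 18 and 16 counts with NETs, against 16, 10 and 11 in control medium, and was not called (2.11-fold, adjusted p = 0.0575 in edgeR). Ly6g had 0 counts in the 3 NET libraries, against 8, 6 and 6 in Veh libraries, and S100a9 had 2, 0 and 9 counts with NETs, against 12, 0 and 8 in control medium.

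Macrophage markers summed to 88.3 to 97.5 CPM with NETs and 36.0 to 40.2 CPM in control medium. That sum was mostly Csf1r, called higher (3.34-fold), while Mrc1 was called lower with 18, 14 and 18 counts with NETs, against 72, 47 and 57 in control medium, Cd68 was not called (0.868-fold) and Adgre1 and C1qb were at 0. Endothelial markers summed to 14.1 to 16.9 CPM with NETs and 12.3 to 14.2 CPM in control medium, mostly Cdh5, called higher (1.21-fold), with Kdr, Tek and Emcn under 6 counts. Markers with a count were named after their values were seen. The part of these in the collagen results was not tested. In bulk RNA, more cells that express a chain and more RNA per cell cannot be told apart.

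Genes that modify, bind or cut collagen were called in both directions, and their counts are set beside the 20.2% of all tested genes that were higher and the 18.7% that were lower. Of 30 genes of collagen assembly and crosslinking 21 were tested, of which 11 were higher (52.4%) and 4 lower (19%), with a median log2 fold change of 0.27. Bmp1, which trims procollagen ends, had 551 ± 1.79 CPM with NETs and 354 ± 12.6 CPM in control medium (1.55-fold, adjusted p = 1.07e-08). P4hb, a subunit of prolyl hydroxylase, had 704 ± 14.4 CPM with NETs and 537 ± 11.4 CPM in control medium (1.31-fold, adjusted p = 3.48e-06). Pcolce2, an enhancer of Bmp1, was 1.46-fold higher and Colgalt1, a collagen galactosyltransferase, 1.30-fold higher (adjusted p = 4.81e-06 and 9.56e-06).

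Of 10 collagen receptors 6 were tested, with 3 higher and 1 lower (50% and 16.7%, beside 20.2% and 18.7% of all tested genes) and a median of 0.29. The integrin chain Itga1, which prefers type IV collagen, had 5.80 ± 0.592 CPM with NETs and 22.4 ± 0.992 CPM in control medium, while Itga2, which prefers type I, had 396 ± 9.92 CPM with NETs and 165 ± 9.51 CPM in control medium (adjusted p = 3.86e-11 and 6.39e-12). Both pair with Itgb1, which was 1.46-fold higher. Ddr1, a receptor kinase for several collagens, was 1.44-fold higher (adjusted p = 1.23e-07). Of 11 collagen-degrading proteases 6 were tested, again with 3 higher and 1 lower (50% and 16.7%, beside the same 20.2% and 18.7%), and a median of 0.55. Mmp13, a collagenase, had 30.6 ± 1.34 CPM with NETs and 15.2 ± 1.89 CPM in control medium. Mmp14, a membrane-bound collagenase, was 1.83-fold higher, and the gelatinase Mmp9 was 14.0-fold higher. Mmp1a, a relative of the human interstitial collagenase, had 12, 4 and 8 counts with NETs, against 38, 34 and 40 in control medium (adjusted p = 0.00200). It is the protease called lower, and it reached 10 counts in every Veh library but not in NET replicates 2 and 3. It could thus pass the filter through the Veh group alone.

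Of 18 partners of fibrils and basement membranes 10 were tested, with 7 higher (70%, beside 20.2% of all tested genes) and a median of 1.14. In edgeR 0 were lower, beside 18.7% of all tested genes, and 0 were lower also at an unadjusted p under 0.05, in DESeq2 and in limma-voom. The 3 tested partners not called included the basement membrane genes Hspg2 (log2 fold change 0.0090, adjusted p = 0.933 in edgeR) and Nid1 (-0.30, adjusted p = 0.230). For Nid1 every NET library lay below every Veh library. The other was Tnxb (0.13, adjusted p = 0.781). With 6 to 21 tested members a list, 1 gene weighs heavily, being 16.7% of a list with 6 tested members. Bgn and, in the assembly list, P4ha3 were called higher but reached 10 counts in NET libraries only. Both could thus pass the filter through that group alone. With a minimum count of 20, 6 of 9 tested partners and 10 of 19 tested assembly genes were higher. The 4 partners with the smallest p-values were Tnc (3.62-fold), Matn2 (4.53-fold), which encodes a filament-forming matrilin, the collagen-binding gene Sparc (4.09-fold) and Postn (18.2-fold). The proteoglycans Dcn, Lum and Fmod, which coat fibrils in connective tissue, were at 0 in all 6 libraries.

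**Figure D5:**
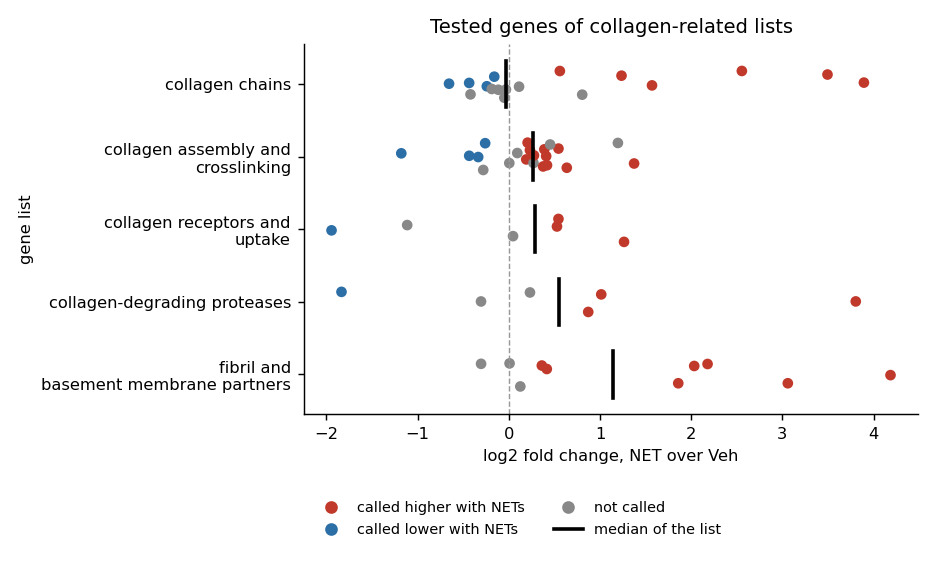
Log2 fold change (NET over Veh) of the tested genes in 5 lists, with 1 point per gene coloured by call and a bar at each list's median. The collagen chains have their median at -0.03 with a tail of rises, and the fibril and basement membrane partners have the highest median, 1.14.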

How the data were processed

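The authors deposited whole-number counts per gene symbol. STAR 2.7.10a, featureCounts of Subread 2.0.3 and mm10 are named in the submitters' processing notes. Strandedness and annotation release of the counting were not given in the sources used here. Libraries held 31119105 to 64431811 counts. Between 74.8% and 78.4% of counts from 1 to 20 were even, as when both mates of a pair are counted, so limits were set at 3 fragments (6 counts). Only 10.5% of 50528 symbols overlapped their GRCm38 position in the table's coordinates, so positions printed are those of GENCODE M21 or RefSeq. Genes were filtered with filterByExpr (minimum count 10), scaled by TMM and tested with edgeR 4.0.16 (robust glmQLFit, glmQLFTest) in R 4.3.3, with the medium as the model and Benjamini-Hochberg adjustment over 13956 genes. Each standard error is the log2 fold change over the root of F. No pair of replicates agreed within sampling noise (chi-square of 9.76 to 25.6 per degree of freedom). Every tested chain is named, and of each partner list the 4 members with the smallest p and some further members. The chains, lists and tests were chosen with earlier results of these data known. Alternatives were other scalings, filters, tools (DESeq2 1.42.0, limma 3.58.1), thinned libraries, a replicate block and leaving out each library.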

Additional observations from a re-analysis of the deposited data

How the results depend on the processing

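Of 16 alternatives, the count of chains called higher lay between 4 (at least 1 CPM in 3 libraries, where 12 chains were tested) and 7 (no low-count filter, with Col5a3 added), and that of lower chains between 3 and 5. Leaving out single libraries gave 5 to 6 higher and 3 to 4 lower. Col1a1, Col4a5, Col7a1, Col12a1, Col16a1, Col18a1 and Col27a1 kept their call and direction wherever they were tested. Of 266 single values for chains 245 kept direction and call, 10 lost the call, 3 gained one and 8 turned, none of these called. The log2 fold change of Col17a1 turned to 0.10 with limma-voom and 0.055 with the replicate block, and ran from -0.26 to 0.45 with single libraries left out, turning without NET replicate 2, NET replicate 3 or Veh replicate 2. That of Col20a1 ran from -0.073 to 0.52 (turning without Veh replicate 2 or 3), and that of Col4a6 from -0.33 to 0.018 (turning without Veh replicate 2). The cause was not tested. With library size alone 2 collagen receptors were lower, and with at least 1 CPM in 3 libraries 0 collagen-degrading proteases were, since Mmp1a was then not tested. Same-numbered libraries deviated together weakly or not at all (r = 0.12, -0.06 and 0.06). For numbers 1 and 3 the same number was still the best match, the other r reaching 0.065 and 0.0014. With 3 libraries a group these values cannot settle whether the numbers pair the libraries. The replicate block gave 6 chains higher and 4 lower. Detected chains numbered 15 at 20 counts, 23 at 1 count and 18 in thinned libraries. Depth limits what can be said of chains under about 20 counts.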

Other observations

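Several genes that collagen-producing cells use were scarce here, and they were picked out once their values had been seen. They do not stand for the assembly and crosslinking list, of which 21 of 30 genes passed the low-count filter. Other members were abundant, such as P4hb (704 CPM with NETs and 537 CPM in control medium), Plod3 (124 and 124 CPM) and Loxl4 (56.4 and 76.1 CPM). Serpinh1, the collagen chaperone of the endoplasmic reticulum, had 24, 10 and 14 counts in NET libraries and 14, 2 and 12 in Veh libraries (log2 fold change 1.20, adjusted p = 0.0865 in edgeR). Lox, which crosslinks fibrils, had 4 counts in NET replicate 3 and 0 in the other 5 libraries. Adamts2 and Adamts3, which remove the amino-terminal propeptide of fibrillar procollagens, were listed at 0 in all 6 libraries. Adamts14, which does the same, had 65, 55 and 76 counts in NET libraries and 238, 164 and 189 in Veh libraries (log2 fold change -1.18, adjusted p = 3.06e-05 in edgeR). In the same libraries Bmp1, which acts at the other end of the procollagen, was higher.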
